A study of Mus musculus with 8 samples.

Results

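The circadian clock genes of the heart were followed here through 7 members, Arntl, Clock, Nfil3, Per1, Per3, Nr1d2 and Bhlhe40, which were found by their gene symbol in the array annotation. They had 10 probes among the 9607 rows of the table, and all 10 were among the 8343 probes that were tested. Clock, Per1 and Per3 had 2 probes each, kept apart, and the other 4 genes had 1 probe each. The members fall into an activator phase (Arntl, Clock and Nfil3, with 4 probes) and a Per phase (Per1, Per3, Nr1d2 and Bhlhe40, with 6 probes), after the time of day at which their transcripts are known to be high in the heart. The study compared the hearts of C57BL/6 mice, an inbred strain, in 4 pools: females of 8 months, males of 8 months, females of 2 months and males of 2 months. Each pool held total RNA of 6 whole hearts, with no genetic change or treatment named in the labels, and the labels give no hour of collection. Female and male pools of equal age were hybridised together on each of 8 arrays, 4 per age, with exchanged dyes: female RNA was labelled with Cy3 in replicates 1 and 3 and with Cy5 in the other two.

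The clock is a loop of transcription factors that runs in nearly every cell, heart muscle cells included. CLOCK and BMAL1, the protein of Arntl, bind E-box sequences and activate the Per, Cry and Nr1d genes, and PER and CRY proteins then block CLOCK and BMAL1. REV-ERB proteins, Nr1d2 among them, repress Arntl and Nfil3 through ROR elements, which ROR proteins activate, and NFIL3 opposes Hlf and its relatives at D-boxes. As a result the transcripts of Arntl and of the Per genes are high at opposite times of day, and in the heart many metabolic genes and ion channel genes follow this rhythm.

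The promoters of 4 members are shown because they hold matches to the kinds of element named above. Binding at these matches was not tested. Windows of 250 bases before to 50 after each gene start came from RefSeq, build GRCm38.p6, and matched 6 of the 7 genes (not Bhlhe40). Capitals mark the matches to ROR element cores (TAGGTCA and its variants TAGGTTA and TGGGTCA were searched), the E-box CACGTG or its variant CACGTT, the D-boxes TTATGTAA and TTACGTAA, and the CRE TGACGTCA with its shorter form TGACGTC, which lies within it, on both strands.
Arntl, chr7:113207261-113207560, plus strand: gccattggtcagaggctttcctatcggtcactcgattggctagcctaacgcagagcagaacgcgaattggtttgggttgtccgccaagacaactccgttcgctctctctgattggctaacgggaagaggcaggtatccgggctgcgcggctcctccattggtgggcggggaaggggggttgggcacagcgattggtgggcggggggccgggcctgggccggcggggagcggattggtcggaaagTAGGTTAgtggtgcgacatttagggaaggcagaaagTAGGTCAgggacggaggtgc
Nfil3, chr13:52980990-52981289, minus strand: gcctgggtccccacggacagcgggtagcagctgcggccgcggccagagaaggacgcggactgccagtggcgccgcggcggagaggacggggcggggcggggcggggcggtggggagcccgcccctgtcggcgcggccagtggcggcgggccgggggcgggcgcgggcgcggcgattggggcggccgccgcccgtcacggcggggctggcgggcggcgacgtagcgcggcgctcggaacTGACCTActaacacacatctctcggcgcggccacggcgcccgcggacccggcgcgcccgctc
Per1, chr11:69098699-69098998, plus strand: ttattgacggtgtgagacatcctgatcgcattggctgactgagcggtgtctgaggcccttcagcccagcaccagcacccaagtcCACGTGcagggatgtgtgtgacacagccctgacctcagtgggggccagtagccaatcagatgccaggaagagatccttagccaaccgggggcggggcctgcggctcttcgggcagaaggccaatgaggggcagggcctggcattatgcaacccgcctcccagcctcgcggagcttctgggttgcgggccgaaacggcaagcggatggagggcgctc
Per3, chr4:151044616-151044915, minus strand: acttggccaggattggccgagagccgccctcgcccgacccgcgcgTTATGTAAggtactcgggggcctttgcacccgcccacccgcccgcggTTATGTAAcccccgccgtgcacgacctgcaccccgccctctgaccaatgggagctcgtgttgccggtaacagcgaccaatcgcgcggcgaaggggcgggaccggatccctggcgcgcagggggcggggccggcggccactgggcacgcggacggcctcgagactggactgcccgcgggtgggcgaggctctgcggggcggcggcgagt
Counted from the gene start, TAGGTTA began at -6 and TAGGTCA at 31 in the Arntl window, and Nfil3 held TAGGTCA on the other strand at -12. TAGGTCA occurred in 2.61% and TAGGTTA in 1.44% of the 32851 windows of all genes. The first of 2 Per1 windows held CACGTG at -166, a motif found in 7.15% of windows, and the second held TGACGTC at -132, found in 3.21%. Per3 held TTATGTAA at -205 and again at -158, a D-box found in 0.938% of windows. Of the motifs without a match in the 4 windows shown, TGGGTCA occurred in 3.98% of all windows, CACGTT in 4.68%, TTACGTAA in 0.119% and TGACGTCA in 1.79%. These letters were in neither the 3 windows of Clock nor the window of Nr1d2.

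All values below are log2 ratios of the female over the male pool, so a positive value is higher in females. The ratio given for an age averages both dye orientations, and the SD is the spread of 4 technical arrays of the same pools, not of animals. Because whole hearts were measured, fewer cells of a type and less RNA per cell cannot be told apart. The table holds ratios without signal levels, so the presence of heart muscle transcripts could not be checked as a level. No cardiomyocyte marker probe of 12 was 1.5-fold from 1 with 1 sign on all arrays at either age. Over all probes, 1.68% were higher and 1.32% lower in this way at 8 months, and 2.36% and 1.83% at 2 months. At such shares the count says little about muscle content. At 8 months 9 of the 12 had a negative mean and 3 a positive one, with Tnnt2 at -0.66 ± 0.75 (SD, 4 arrays). The array medians of the 12 probes ran from -0.60 to 0.35 at 8 months. From replicates 3 and 4 alone the median of these probes was -0.07. With ratios read as Cy5 over Cy3, Xist was at 3.45 at 8 months and 2.44 at 2 months. The Y-linked Kdm5d was at -2.88 at 8 months and -2.43 at 2 months, and the Y-linked Eif2s3y at -1.87 and -3.18 at these ages. The Eif2s3y arrays of the 2 ages did not overlap, and its difference of 1.31 was rank 112 of 8343 by size. The cause of this difference was not tested. Since these sex-linked genes also served to settle that reading, they are no separate check of the labelled sex. Replicates 1 and 2 of 8 months stood apart: their ratios followed a trend along the feature number, the order of probes on the array, with an SD of the running median of 0.507 and 0.822, against 0.0327 to 0.0722 on the other 6 arrays. The 8-month ratio of each core clock gene is therefore also given from replicates 3 and 4 alone and with the trend removed (each array minus its running median).

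**Figure D1:**
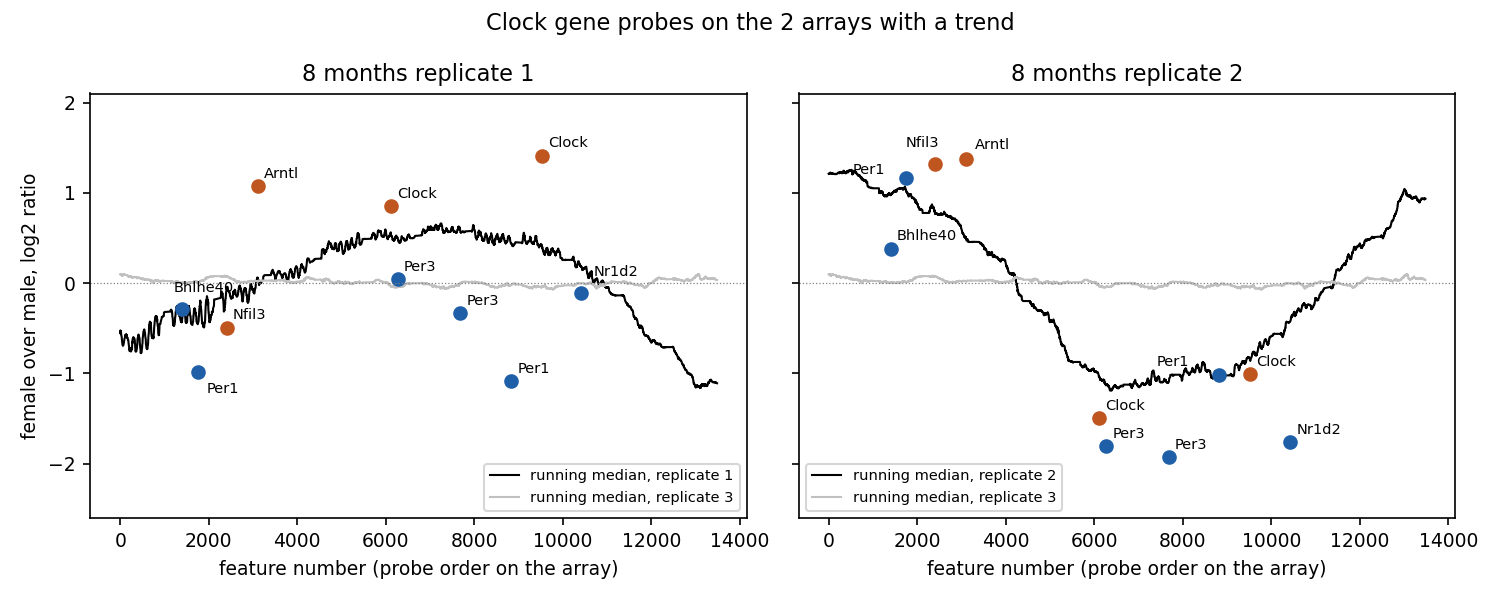
Female over male log2 ratio of the 10 clock gene probes against feature number on replicates 1 and 2 of 8 months; orange points are activator phase probes, blue points Per phase probes, the black line is the running median of that array and the grey line that of replicate 3. On replicate 2 the running median falls to about the level of the second Per1 probe (-1.03 at feature 8826), while Arntl lies above the line and Per3 and Nr1d2 below it on both arrays.

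At 8 months Arntl was higher and the Per phase probes Per1 8826, Per3 7684 and Nr1d2 were lower in the female pool, each at least 1.5-fold from 1 with 1 sign on all 4 arrays. At 2 months no member probe reached this size, and the signs of Arntl, Per1 8826 and Per3 7684 were the opposite on every array. No member passed a test of sex over both ages: limma (Benjamini-Hochberg adjustment over all 8343 probes, n = 2 pairs of pools, called at an adjusted p under 0.05) called 0 of the 10 member probes, beside 0.0959% of all probes. At an unadjusted p under 0.05 it gave 1 member probe, Clock 6108, with 869 such probes among all tested, and limma with robust moderation also called 0 members. The adjusted p of the members in limma ran between 0.461 and 0.937. Since each age had 1 pair of pools, neither the ratios of 1 age nor the differences between ages have a test.

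Among the activators, Arntl encodes BMAL1, the partner that the loop cannot run without. Its ratio was 1.07, 1.37, 0.83 and 1.15 on replicates 1 to 4 at 8 months, and -0.36, -0.16, -0.50 and -0.27 at 2 months. Every array of 8 months lay above every array of 2 months, with no overlap and opposite signs. The mean was 1.11 ± 0.22 at 8 months, a 2.15-fold higher level in the female pool, and -0.32 ± 0.14 at 2 months (SD, 4 arrays each). The ratio differed by 1.43 between 8 and 2 months, rank 95 of 8343 by size. At 8 months Arntl stood at 0.99 on replicates 3 and 4 alone and at 0.97 ± 0.15 with the trend removed. Over both ages the limma estimate was 0.39 ± 0.32 (SE, adjusted p = 0.761).

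Clock encodes the other partner of the activator pair. Probe 6108 read 0.85, -1.49, -0.05 and -0.07 at 8 months, and -0.57, -0.67, -0.29 and -0.61 at 2 months. Probe 9519 read 1.41, -1.01, 0.12 and 0.15 at 8 months, and -0.56, -0.42, -0.34 and -0.42 at 2 months. Both probes were lower in females on all 4 arrays of 2 months, at ratios of 0.690 and 0.740, which is short of the 1.5-fold size. At 8 months both had 1 high and 1 low array, replicates 1 and 2, and the means of -0.19 ± 0.97 and 0.17 ± 0.99 differed in sign (SD, 4 arrays). On replicates 3 and 4 they were -0.06 and 0.13, and with the trend removed -0.07 ± 0.31 and 0.28 ± 0.49. The arrays of the ages overlapped for both probes; with the trend removed those of probe 9519 did not, and its difference between ages was 0.70.

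Nfil3, a repressor at D-boxes, ranged between -0.49 and 1.32 at 8 months, with a mean of 0.35 ± 0.77, and between 0.05 and 0.15 at 2 months, with a mean of 0.11 ± 0.05 (SD, 4 arrays each). Its 4 arrays of 2 months were all slightly positive, and those of 8 months lay on both sides of 0. The 8-month value was 0.29 on replicates 3 and 4, 0.16 ± 0.43 with the trend removed, 0.032 without replicate 2 and 0.095 without replicate 3.

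**Figure D2:**
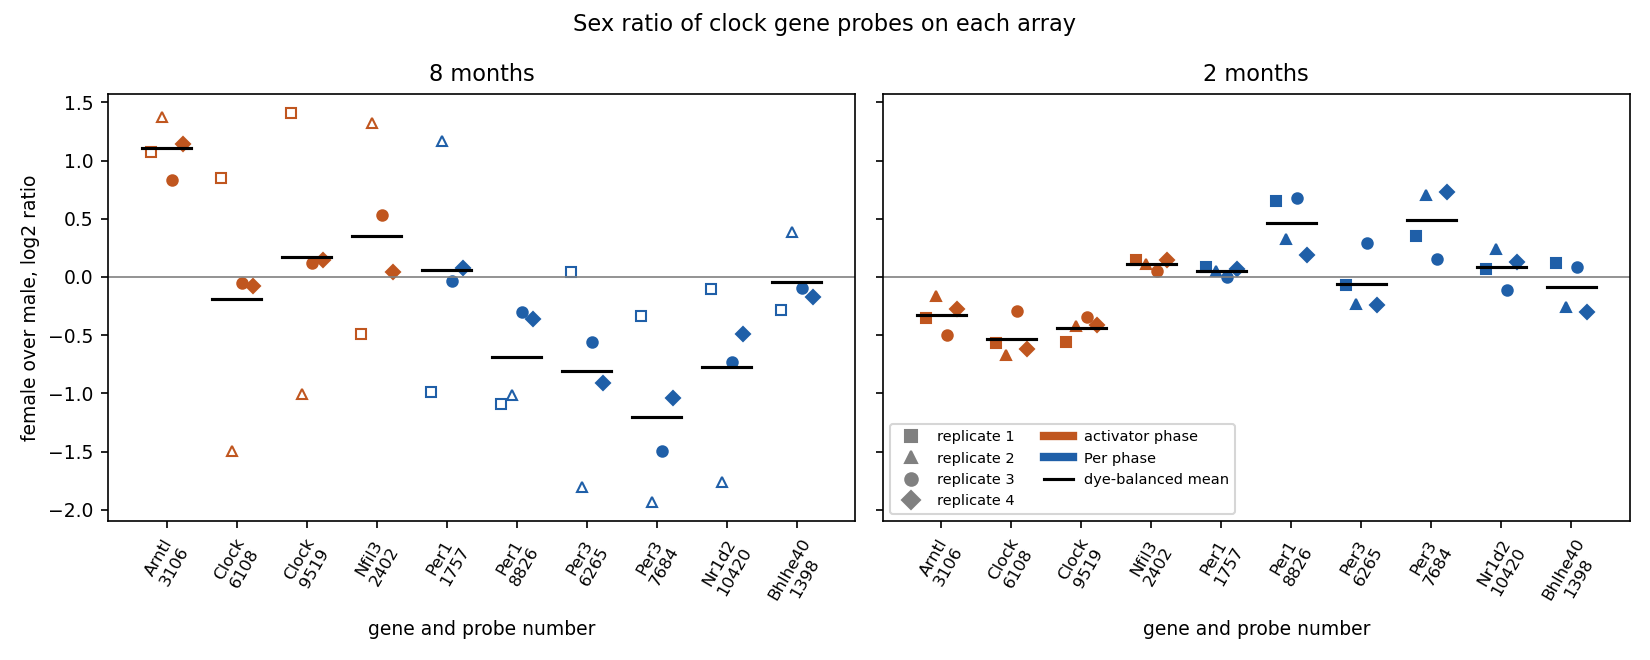
Female over male log2 ratio of each clock gene probe on each array at 8 months (left) and 2 months (right); orange is the activator phase, blue the Per phase, the symbol is the replicate, open symbols are replicates 1 and 2 of 8 months, and the black bar is the dye-balanced mean. Arntl lies between 0.83 and 1.37 at 8 months and below 0 on all arrays of 2 months, whereas Per3 7684 lies between -1.93 and -0.34 at 8 months and above 0 on all arrays of 2 months.

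Per3, a PER protein gene with a strong rhythm in heart, had the lowest ratio of the members at 8 months. Probe 7684 read -0.34, -1.93, -1.50 and -1.04 at 8 months, and 0.36, 0.71, 0.15 and 0.73 at 2 months. All arrays of 8 months were below and all of 2 months above 0. The means were -1.20 ± 0.68 at 8 months, a female to male ratio of 0.435, and 0.49 ± 0.28 at 2 months, a ratio of 1.40 (SD, 4 arrays each). The difference between ages of -1.69 was rank 52 of 8343 by size. The 8-month value was -1.27 on replicates 3 and 4 and -1.07 ± 0.29 with the trend removed. The second probe of the gene, 6265, read 0.04, -1.81, -0.56 and -0.91 at 8 months, and -0.07, -0.23, 0.29 and -0.24 at 2 months. Here replicate 1 was the only positive array of 8 months and the ages overlapped, so the probes share the direction at 8 months (mean of 6265 -0.81 ± 0.77) but not the positive ratio at 2 months (-0.06 ± 0.25). With replicates 3 and 4 alone this probe stood at -0.73, with the trend removed at -0.65 ± 0.21, and in both cases its arrays of 8 months were all below 0 and it passed the 1.5-fold size.

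The Per1 probes disagreed. Per1 is the PER gene that also answers quickly to hormones and cyclic AMP. Probe 8826 read -1.09, -1.01, -0.30 and -0.36 at 8 months, and 0.66, 0.33, 0.68 and 0.19 at 2 months, with no overlap and opposite signs. Its means were -0.69 ± 0.42 at 8 months and 0.46 ± 0.24 at 2 months, and the difference was -1.16, rank 157. The size at 8 months rested on replicates 1 and 2: it was -0.33 on replicates 3 and 4 and -0.53 ± 0.68 with the trend removed, where replicate 2 stood at 0.02. Probe 1757 was at 0.06 ± 0.88 at 8 months, where its arrays lay on both sides of 0, and at 0.05 ± 0.04 at 2 months (SD, 4 arrays each). At 8 months it was 0.02 on replicates 3 and 4 and -0.08 ± 0.32 with the trend removed.

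Nr1d2 encodes REV-ERB beta, which represses Arntl. It read -0.11, -1.76, -0.73 and -0.49 at 8 months, and 0.07, 0.24, -0.11 and 0.13 at 2 months. All arrays of 8 months were negative, and replicate 1 reached the lowest array of 2 months, which made the ages overlap. The mean was -0.77 ± 0.71 at 8 months, a ratio of 0.585, and 0.08 ± 0.15 at 2 months (SD, 4 arrays each). From replicates 3 and 4 alone the 8-month value was -0.61, from the ratios without the trend it was -0.71 ± 0.45, and in both cases the ages did not overlap. It fell short of the 1.5-fold size without replicate 2, at -0.46, and with all arrays scaled to 1 spread, at -0.49. Bhlhe40, a repressor that competes at E-boxes, was near 0 at both ages, at -0.04 ± 0.29 at 8 months and -0.09 ± 0.22 at 2 months, with arrays on both sides of 0. Its 8-month value was -0.14 on replicates 3 and 4 and -0.19 ± 0.30 with the trend removed.

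Counted over the members, 1 probe was at least 1.5-fold higher with 1 sign on all arrays at 8 months, beside 1.68% of all probes, and 3 were lower, beside 1.32%. At 2 months 0 were higher, beside 2.36%, and 0 lower, beside 1.83%. One sign on all arrays without regard to size was seen for 4 member probes at 8 months, where 10.5% of all probes had it, and for 6 at 2 months, where 35.6% had it. Between the ages, 1 member probe was at least 1.5-fold higher at 8 months without overlap of the arrays, beside 1.63%, and 2 were lower, beside 1.71%. These were Arntl, Per1 8826 and Per3 7684, the same 3 whose arrays of the ages did not overlap at all (5.95% of all probes) and whose sign was opposite at each age on every array (1.76%).

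Replicates 3 and 4 alone gave 4 member probes of 1.5-fold with 1 sign at 8 months (3.3% of all probes), namely Arntl, both Per3 probes and Nr1d2. Removing the trend gave the same 4 (2.85%). The difference between ages then held 5 member probes under each setting: Arntl, Per1 8826, Per3 7684 and Nr1d2 in both, with Per3 6265 from replicates 3 and 4 (5.97% of all probes) and Clock 9519 without the trend (4.6%). Ordered by ratio at 8 months the probes ran from Arntl at the top through Nfil3, Clock 9519, Per1 1757, Bhlhe40, Clock 6108, Per1 8826, Nr1d2 and Per3 6265 down to Per3 7684, and no neighbours in this order differed by more than the larger of their SDs. At 2 months Per3 7684 and Per1 8826 were at the top and both Clock probes at the bottom, below Arntl.

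**Figure D3:**
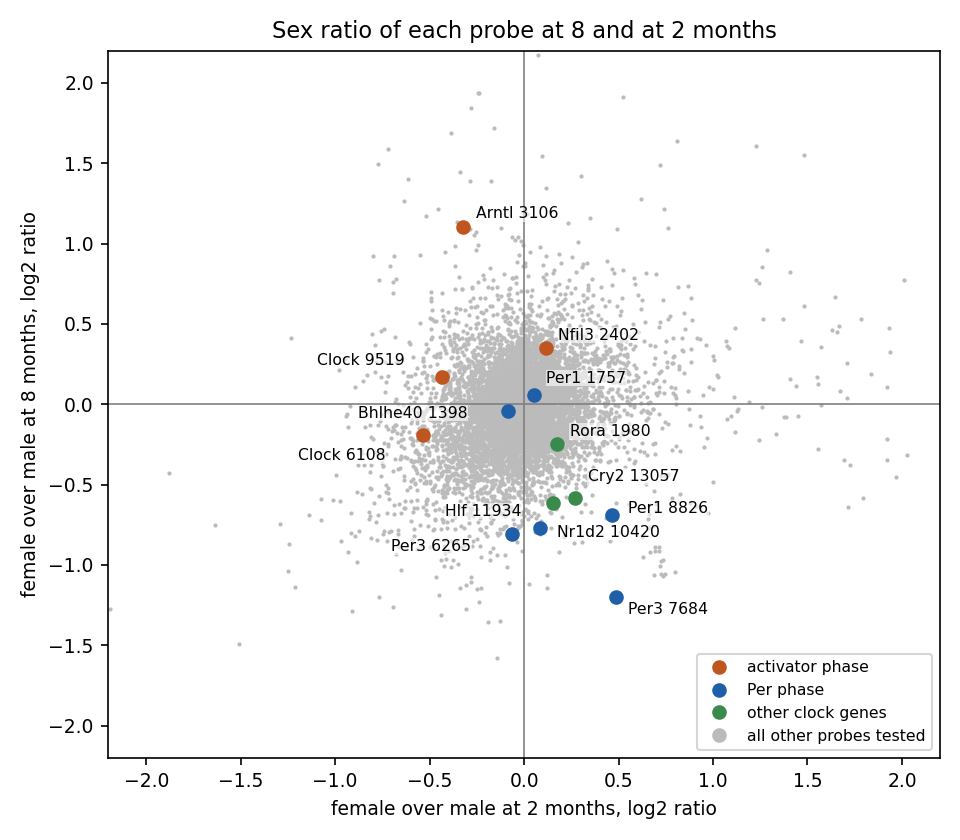
Female over male log2 ratio of each probe at 8 months (vertical) against 2 months (horizontal), dye-balanced means; grey points are the other tested probes, orange and blue points the activator and Per phase probes, green points 3 further clock genes, and probes beyond the axes are not drawn. Arntl lies upper left, at 1.11 at 8 months and -0.32 at 2 months, and Per3 7684 lower right, at -1.20 and 0.49.

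Set against each other, the phases stood in opposite order at the 2 ages. The median over the 4 activator phase probes was 0.96, 0.16, 0.32 and 0.10 on replicates 1 to 4 at 8 months, and that over the 6 Per phase probes was -0.31, -1.39, -0.43 and -0.43. The activator median was above the Per median on each of these arrays. At 2 months the activator medians were -0.46, -0.29, -0.32 and -0.34, and the Per medians 0.10, 0.15, 0.12 and 0.10, in the reverse order on each array. The activator phase minus the Per phase, taken between medians of the probe means, came to 0.99 at 8 months and to -0.45 at 2 months. Taken on each array instead, this difference was 1.27, 1.54, 0.76 and 0.52 on replicates 1 to 4 at 8 months. The SD of the array differences was 0.47 at 8 months and 0.06 at 2 months (4 technical arrays each). The median of all probes was -0.03 at 8 months and -0.02 at 2 months. Replicates 3 and 4 gave a difference between the phases of 0.68 at 8 months, and the ratios without the trend gave 0.81 at 8 months and -0.46 at 2 months. Since the members were chosen with results of these arrays known, this is a description and carries no test.

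**Figure D4:**
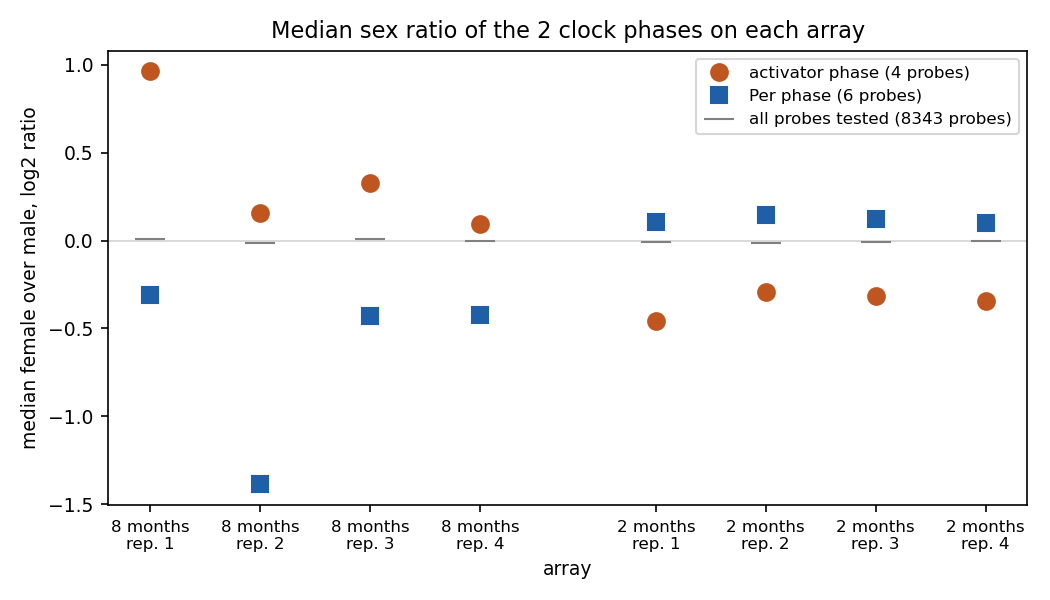
Median female over male log2 ratio of the activator phase probes (orange circles), the Per phase probes (blue squares) and all tested probes (grey dashes) on each of the 8 arrays. The circles lie above the squares on the 4 arrays of 8 months and below them on the 4 arrays of 2 months, and the dashes lie near 0 throughout.

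Of the other core clock genes, 3 were tested. Cry2, whose protein blocks CLOCK and BMAL1 together with PER, read -1.25, -0.11, -0.43 and -0.53 at 8 months, and 0.31, 0.28, 0.29 and 0.21 at 2 months. Hlf, an activator at D-boxes, read -1.02, -0.09, -0.65 and -0.69 at 8 months, and 0.13, 0.22, 0.01 and 0.25 at 2 months. Both were negative on every array of 8 months and positive on every array of 2 months, as were Per1 8826 and Per3 7684. Opposite signs of the ages on all arrays, in either direction, were seen for 1.76% of all probes. The differences between ages were -0.85 for Cry2 and -0.77 for Hlf. At 8 months Cry2 stood at -0.48 on replicates 3 and 4 and at -0.54 ± 0.41 with the trend removed, and Hlf at -0.67 and -0.55 ± 0.11 under these settings. Rora, an activator of Arntl, was at -0.25 ± 0.42 at 8 months and 0.18 ± 0.08 at 2 months (SD, 4 arrays each), and its ages overlapped. At 8 months it was -0.32 on replicates 3 and 4 and -0.43 ± 0.14 with the trend removed, where the ages did not overlap. Npas2, Rorb, Per2, Cry1, Nr1d1, Bhlhe41, Ciart, Dbp and Tef were not analysed here.

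Clock kinases, phosphatase subunits and ligase subunits, listed together with Timeless, showed no probe of 1.5-fold size. Over all probes, 1.68% were this much higher and 1.32% lower with 1 sign at 8 months, and 2.36% and 1.83% at 2 months, so few of any 9 probes would pass. Their list had 9 probes of 8 genes, with a median of -0.09 at 8 months and -0.02 at 2 months, and limma called 0 of them, with 0 at an unadjusted p under 0.05 and 0 called with robust moderation. The largest over both ages was Ppp1cb, a phosphatase catalytic subunit, at -0.09 ± 0.41 at 8 months and -0.38 ± 0.17 at 2 months. Csnk1d, a kinase of PER proteins, was at -0.34 ± 0.80 at 8 months and -0.01 ± 0.40 at 2 months. The 2 probes of Csnk2a1 were at -0.24 and -0.36 at 8 months and at -0.02 and -0.03 at 2 months, and Ppp1ca was at -0.16 at 8 months and -0.01 at 2 months.

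Genes that the clock drives in heart gave values of both signs. Limma called 0 of their 14 probes (13 genes), plain or with robust moderation. An unadjusted p under 0.05 was given to 3 (Pdk4, Hcn2 and Kcnk3 12962), as to 869 of all 8343 probes. This p rests on the 2 age values and takes no account of the spread between arrays. Their medians were -0.13 at 8 months and 0.00489 at 2 months. Pdk4, which blocks glucose oxidation, read -0.61, -0.89, -0.69 and -0.82 at 8 months, and -1.08, -2.16, -0.96 and -2.35 at 2 months, lower in the female pool on all 8 arrays (limma estimate -1.20 ± 0.22, SE, adjusted p = 0.212). Tfrc, the transferrin receptor, read 1.12, -0.28, 0.49 and 0.33 at 8 months, and -0.98, -1.51, -0.52 and -1.93 at 2 months, so that its ages did not overlap. Klf15, a regulator of cardiac metabolism and of a potassium channel subunit, was at -0.02 ± 0.33 at 8 months and 0.58 ± 0.04 at 2 months, without overlap. Between ages, 2 of the 14 probes (Pdk4 and Tfrc) had a ratio at least 1.5-fold higher at 8 months without overlap, beside 1.63% of all probes. Lower in this way was 1 (Klf15), beside 1.71%. With the trend removed the ages of Pdk4 overlapped. Kcnk3 and Hcn2 encode ion channels. The Kcnk3 probe 12962 was at -0.81 ± 0.90 at 8 months and -0.75 ± 1.71 at 2 months. It followed the dye at 2 months, with replicates 1 and 3 positive and 2 and 4 negative. The other Kcnk3 probe, 13172, was at -0.04 ± 0.73 at 8 months and 0.02 ± 0.17 at 2 months. Hcn2 was at -0.28 ± 0.35 at 8 months and -0.41 ± 0.19 at 2 months.

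Markers of other tissues differed between the pools beside these values. At 2 months all 11 thymocyte and T cell marker probes were at least 1.5-fold higher in females, with array medians between 2.56 and 3.14, against -0.14 to 0.34 at 8 months. Over all probes, 2.36% were this much higher with 1 sign at 2 months and 1.68% at 8 months. Of 9 fat marker probes, 7 were higher at 2 months, with array medians of 1.40 to 1.88, against -0.17 to 0.10 at 8 months. Of 4 lung marker probes, 1 was higher at 8 months and 3 at 2 months; Sftpc, a surfactant protein gene, was at 3.12 at 8 months and 1.76 at 2 months. The 3 erythroid marker probes had a median of 0.71 at 8 months and 0.18 at 2 months. The median was -0.26 at 8 months and -0.04 at 2 months over the 12 cardiomyocyte probes, -0.35 and -0.28 at these ages over the 8 endothelial probes, and -0.01 and -0.15 over the 5 fibroblast probes. From replicates 3 and 4 alone, the 8-month median was -0.07 for cardiomyocyte, -0.25 for endothelial, 0.04 for fibroblast and 0.84 for erythroid probes. Their part in the clock gene ratios was not tested.

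The rows most like a member were sought by the smallest root mean square difference over the 8 arrays, among 6128 rows with 1 symbol and values on all arrays. For Arntl, the member with the highest ratio over both ages, these were Thbs1 (0.243), Sfrp4 (0.258) and Tnp2 (0.273). For Per3 6265, the lowest over both ages, they were Lgals4 (0.130), Prrt2 (0.185) and Ptp4a3 (0.216).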

How the data were processed

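RNA of pooled whole hearts was compared on 2-colour Agilent cDNA arrays. The deposited values have the form of log10 ratios; the authors analysed the images in Feature Extraction 7.1.1 (Agilent), per the labels, which give neither the direction of the ratio nor any later normalization step. They were limited at 2 and -2 with a median of 0 per array. Cy5 over Cy3, the form of that program, was taken as the direction because Xist was then higher and Kdm5d and Eif2s3y lower with female RNA on all 8 arrays, and every sign reported rests on this reading. An exact 0 (6.38 to 13.9% of values per array) was treated as no measurement. Ratios were converted to log2 female over male. No signal levels are in the table, so depth over background is unknown and precision is limited by the count of arrays.

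Of the rows, 6671 had 1 symbol (6600 matched RefSeq GRCm38.p6 by gene ID), 400 had several and 2536 none. A row was tested with values on at least 3 of 4 arrays per age in both dye orientations. The arrays of an age were averaged to 1 value per pair of pools, within and then over dye orientations, and limma 3.58.1 in R 4.3.3 (lmFit, eBayes, two-sided, Benjamini-Hochberg) tested the 2 age values. Python 3.11.15 did the rest. The members, lists and sizes were chosen with earlier results of these data known. Named were every member probe, every measured core clock and output gene, up to 4 genes of each other list with the largest value over both ages and those of at least 1.5-fold (these last chosen after their values were seen), and the 3 most alike rows for 2 members.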

Additional observations from a re-analysis of the deposited data

Results flagged for a closer look

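The 27 probes examined were those of the core clock and output genes and of up to 4 genes of each other list. The latter genes were picked by their size over both ages. In 5 of the 27, every array of 8 months had one sign and every array of 2 months the other, beside 1.76% of all probes. None of these differences was tested, since each age had 1 pair of pools. The female over male log2 ratio at 8 months minus that at 2 months was 1.43 for Arntl, -1.16 for Per1 8826, -1.69 for Per3 7684, -0.85 for Cry2 and -0.77 for Hlf. Arntl alone of the 5 had the positive sign at 8 months, and the 4 others had the negative sign. With the trend removed, replicate 2 of 8 months stood at 0.02 for Per1 8826, so this probe no longer had 1 sign on all arrays. In 54 groups of 4 arrays (27 probes at 2 ages) no array stood apart from the other 3 by Dixon's criterion. The criterion seeks 1 outlying array among 4, so it cannot flag 2 arrays that stand apart together. It therefore does not clear replicates 1 and 2 of 8 months, whose running medians had an SD of 0.507 and 0.822.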

How the results depend on the processing

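No paired analysis was possible by replicate number because the averaged arrays leave the replicate number no residual degrees of freedom as a block. The arrays of an age are technical repeats of 1 pair of pools and were averaged before the fit. The pairing of female and male pools on each array was used, since limma tested the ratios within these pairs. The activator phase stood above the Per phase at 8 months under every setting run (0.60 to 1.22) and below it at 2 months (-0.49 to -0.40). At 8 months Arntl ran between 0.75 and 1.17, Per3 7684 between -1.49 and -0.91, Nr1d2 between -1.09 and -0.46 and Per1 8826 between -0.89 and -0.32. Nr1d2 was below the 1.5-fold size without replicate 2 and with scaled arrays, and Per1 8826 with replicates 3 and 4, without the trend, with probes averaged, with scaled arrays and without replicate 1 or 2. Over both ages limma called 0 members under every setting, while the count over all probes was 8, against 1 with replicates 3 and 4 alone at 8 months, 4 without the trend, 5 with centred arrays, 3 with arrays scaled to 1 spread, 0 with exact zeros kept (934 at an unadjusted p under 0.05), 4 with a filter of 1 array per age and 4 to 152 with 1 array left out; 152 was without replicate 1 and 112 without replicate 4 of 8 months. Probes of 1.5-fold size with 1 sign at 8 months numbered 250, against 94 with scaled arrays, 412 with the looser filter, 68 at 2-fold and 245 to 576 with 1 array left out. At 2 months 350 became 94 at 2-fold. The difference between ages held 279 probes, against 497 with replicates 3 and 4, 129 at 2-fold and 297 to 533 with 1 array left out. Over both ages Per1 1757 (0.05) turned to -0.030 with probes averaged, to -0.018 without the trend and ran between -0.082 and 0.19 with 1 array left out. Per1 8826 (-0.11) turned to 0.067 with replicates 3 and 4 and to 0.071 with scaled arrays. With 1 array left out, Clock 9519 (-0.13) ran between -0.30 and 0.028 and Bhlhe40 (-0.06) between -0.13 and 0.00466. The causes were not tested. Member values changed sign in 11 of 160 recomputations at 8 months, in 2 of 160 at 2 months and in 15 of 160 for the difference between ages. The 1 pair of pools per age limits what can be seen, since no animal was measured alone.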

Other observations

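Glucocorticoid-responsive and immediate early genes, through which hormones and activity reset the clock, were mostly positive in the female pool. Of 15 probes (14 genes), 12 were positive and 3 negative at each age. The list medians were 0.26 at 8 months and 0.35 at 2 months, beside -0.03 and -0.02 over all probes. The 3 negative at 2 months were Zbtb16 (-0.51), Creb1 (-0.11) and Ier2 (-0.07). Limma called 0 of the 15, plain or with robust moderation. At an unadjusted p under 0.05 there were 7, beside 869 of all 8343 probes. At least 1.5-fold higher with 1 sign were 2 at 8 months (Fos and Nr4a1), beside 1.68% of all probes. At 2 months 6 were (Tsc22d3, Mt1, Mt2, Nr4a1, Nfkbia and Fkbp5), beside 2.36%. Nr4a1, an immediate early nuclear receptor, read 1.76, 0.39, 0.82 and 0.88 at 8 months, and 1.71, 1.17, 1.29 and 0.99 at 2 months, higher on all 8 arrays (limma estimate 1.12 ± 0.14, SE, adjusted p = 0.132). Fkbp5, a glucocorticoid receptor co-chaperone, was at 0.53 ± 0.57 at 8 months and 0.76 ± 0.14 at 2 months, and Mt2, a metallothionein, at 0.32 ± 0.84 and 0.75 ± 0.11 at these ages. Fos, part of the AP-1 factor, was at 1.01 ± 0.69 at 8 months and 0.28 ± 0.18 at 2 months (SD, 4 arrays). Nfkbia, an inhibitor of NF-kB, was the 1 probe of the list with a difference between ages of at least 1.5-fold without overlap. It was at 0.08 ± 0.19 at 8 months and 0.71 ± 0.11 at 2 months. Over all probes, 1.71% were lower at 8 months in this way. At 2 months the thymocyte, T cell and fat markers were higher in the same female pool, and their part in these values was not tested.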
